A study of Rattus norvegicus and Mus musculus with 22 samples.

Results

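CD4-positive cells sorted from the spleens of 3 SM22alpha-Cre reporter mice were profiled by RNA-seq after sorting on the red fluorescent reporter tdTomato. These 6 libraries were chosen from the 22 of the series by their sample titles, and they are the whole of its mouse data. The other libraries are rat lung and rat lung CD4-positive cells. The tdTomato-positive cells of mouse 1, 2 and 3 were compared with the tdTomato-negative cells of the same 3 mice, 1 library per mouse and fraction. All 6 samples carry the genotype Ai14; SM22alpha-Cre, so both fractions share both alleles. The labels list no treatment, age or sex for these mice, and they name the cell type as CD4+ T cell and the sort as FACS.

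SM22alpha, also called transgelin, is an actin-binding protein of smooth muscle encoded by Tagln. In SM22alpha-Cre mice its promoter drives Cre recombinase, and the line is commonly used to alter genes in vascular smooth muscle. Ai14 is a reporter allele at the Rosa26 locus that makes tdTomato once Cre has removed a stop cassette. The mark is permanent and inherited, so it records Cre activity at any earlier stage of a cell or its ancestors, and not present activity of the promoter. The labels do not name the promoter fragment or the Cre line.

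Library totals ran from 8737138 to 12560401 counts. Of 25683 genes in the table, 15115 had a count and 11083 passed the filter on low counts and were tested. Levels are given as CPM, counts scaled to library size. Across genes, log2 CPM correlated closely between libraries, at 0.956 to 0.970 for the fractions of one mouse and 0.951 to 0.965 for opposite fractions of different mice. Libraries of the same fraction from different mice correlated at 0.956 to 0.973 for tdTomato-positive and 0.957 to 0.962 for tdTomato-negative cells. The Y-linked genes Ddx3y, Eif2s3y, Kdm5d and Uty summed to 348 CPM in the tdTomato-positive and 294 CPM in the tdTomato-negative library of mouse 1, and had 0 counts in the 4 libraries of the other mice, so both fractions of mouse 1 match in this respect. The tdTomato-positive library of mouse 2 lay at 48.1 on the leading principal component, with the other 5 between -22.7 and 7.09, and this component held 27.4% of the variance.

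Both markers of the labelled cell type were high in every library. Cd3e, a signalling chain of the T cell receptor complex, was at 411, 462 and 407 CPM in the tdTomato-positive libraries and at 502, 462 and 335 CPM in the tdTomato-negative libraries of mouse 1, 2 and 3. Cd4, the co-receptor for MHC class II, was at 526, 480 and 524 CPM in tdTomato-positive cells and at 542, 538 and 506 CPM in tdTomato-negative cells. The fractions overlapped for both genes. The log2 fold change, tdTomato-positive over tdTomato-negative, was -0.00 for Cd3e (95% interval -0.25 to 0.25) and -0.05 for Cd4 (-0.27 to 0.17), and the adjusted p was 0.999 for Cd3e and 0.976 for Cd4. Here and below, adjusted p are from edgeR's quasi-likelihood test, adjusted by Benjamini-Hochberg across every gene tested. Per kilobase of exon, the mean level was 105 CPM for Cd3e in tdTomato-positive and 106 CPM in tdTomato-negative cells.

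Few genes differed between the fractions. At an adjusted p under 0.05, 2 genes rose in tdTomato-positive cells, which is 0.018% of the genes tested, and 1 gene fell, which is 0.00902%. The genes that rose were Cd74, the invariant chain that escorts MHC class II molecules, and H2-Ab1, the beta chain of the class II molecule I-A. The gene that fell was Exosc6, a subunit of the RNA exosome. At an unadjusted p under 0.05 there were 333 genes higher and 211 lower. The median log2 fold change of all genes tested was -0.01, and the median half-width of a gene's 95% interval was 0.38 on the log2 scale.

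**Figure D1:**
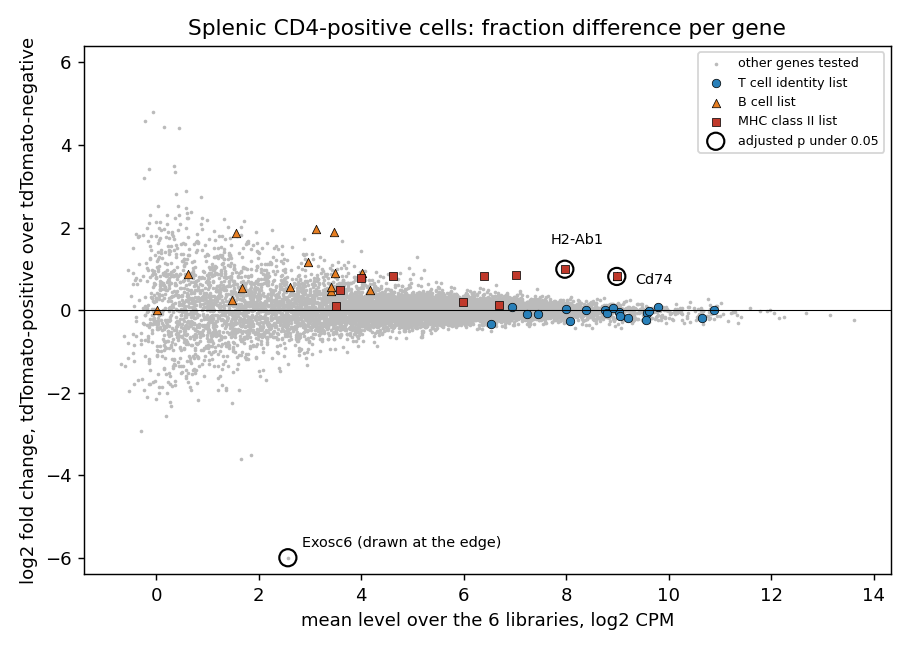
Log2 fold change of each of the 11083 genes tested, tdTomato-positive over tdTomato-negative, against its mean level in log2 CPM. Circles mark the 3 genes with an adjusted p under 0.05; MHC class II genes (squares) and B cell genes (triangles) lie mostly above 0, T cell identity genes (dots) near it, and Exosc6 is drawn at the edge since it has 0 counts in tdTomato-positive cells.

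MHC class II molecules present peptides to CD4-positive T cells and are made chiefly by B cells, dendritic cells and macrophages. Cd74 had 961, 509 and 491 CPM in tdTomato-positive libraries of mouse 1, 2 and 3, against 452, 280 and 348 CPM in tdTomato-negative libraries. Every tdTomato-positive value was above every tdTomato-negative one, and mouse 1 had the highest value in each fraction. The log2 fold change of Cd74 was 0.82 with a standard error (SE) of 0.12 (edgeR's quasi-likelihood test, adjusted p = 0.0216). H2-Ab1 had 550, 250 and 222 CPM in tdTomato-positive libraries, against 203, 117 and 165 CPM in tdTomato-negative libraries. These values did not overlap either, and the ratio was largest in mouse 1 and smallest in mouse 3, at 1.44, 1.10 and 0.43 on the log2 scale for mouse 1, 2 and 3. The log2 fold change of H2-Ab1 was 0.99 with an SE of 0.15 (adjusted p = 0.022, edgeR's quasi-likelihood test). H2-Ab1 lies on chromosome 17 at 34257689 to 34269419 on the plus strand of GRCm38, and Cd74 on chromosome 18 at 60803848 to 60812652, also on the plus strand.

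Both calls depended on the design and on single mice. With no replicate block, the adjusted p was 0.998 for Cd74 and for H2-Ab1. Without mouse 2 it was 0.407 for each, and without mouse 1 it was 0.0247 for Cd74 and 0.110 for H2-Ab1, which also missed the threshold when counts were scaled to the library total alone, at 0.0543. The log2 fold change stayed above 0 in each of these fits.

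All 10 genes of the MHC class II list were tested, and 2 passed the test. The partner chain H2-Aa, with a log2 fold change of 0.86, and H2-Eb1, the beta chain of I-E, with 0.83, just missed the threshold, each at an adjusted p of 0.055 in edgeR's quasi-likelihood test. H2-Aa had 234, 131 and 139 CPM in tdTomato-positive libraries and 105, 64.0 and 106 CPM in tdTomato-negative libraries. The peptide loading gene H2-DMb2 had a log2 fold change of 0.83 and Ciita, the master regulator of class II transcription, one of 0.78, and neither was called. H2-DMa, H2-Oa and H2-Ob, which encode chains of the accessory molecules that edit the bound peptide, had values of 0.20, 0.09 and 0.11. The tdTomato-positive library was above its partner in all 3 mice for 7 of the 10 genes, beside 11.8% of all genes tested, and the fractions did not overlap for 6 of 10, beside 4.12% of all genes. The list's median log2 fold change was 0.80. Its summed level was 2186, 1200 and 1182 CPM in tdTomato-positive libraries, against 1026, 720 and 895 CPM in tdTomato-negative libraries.

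**Figure D2:**
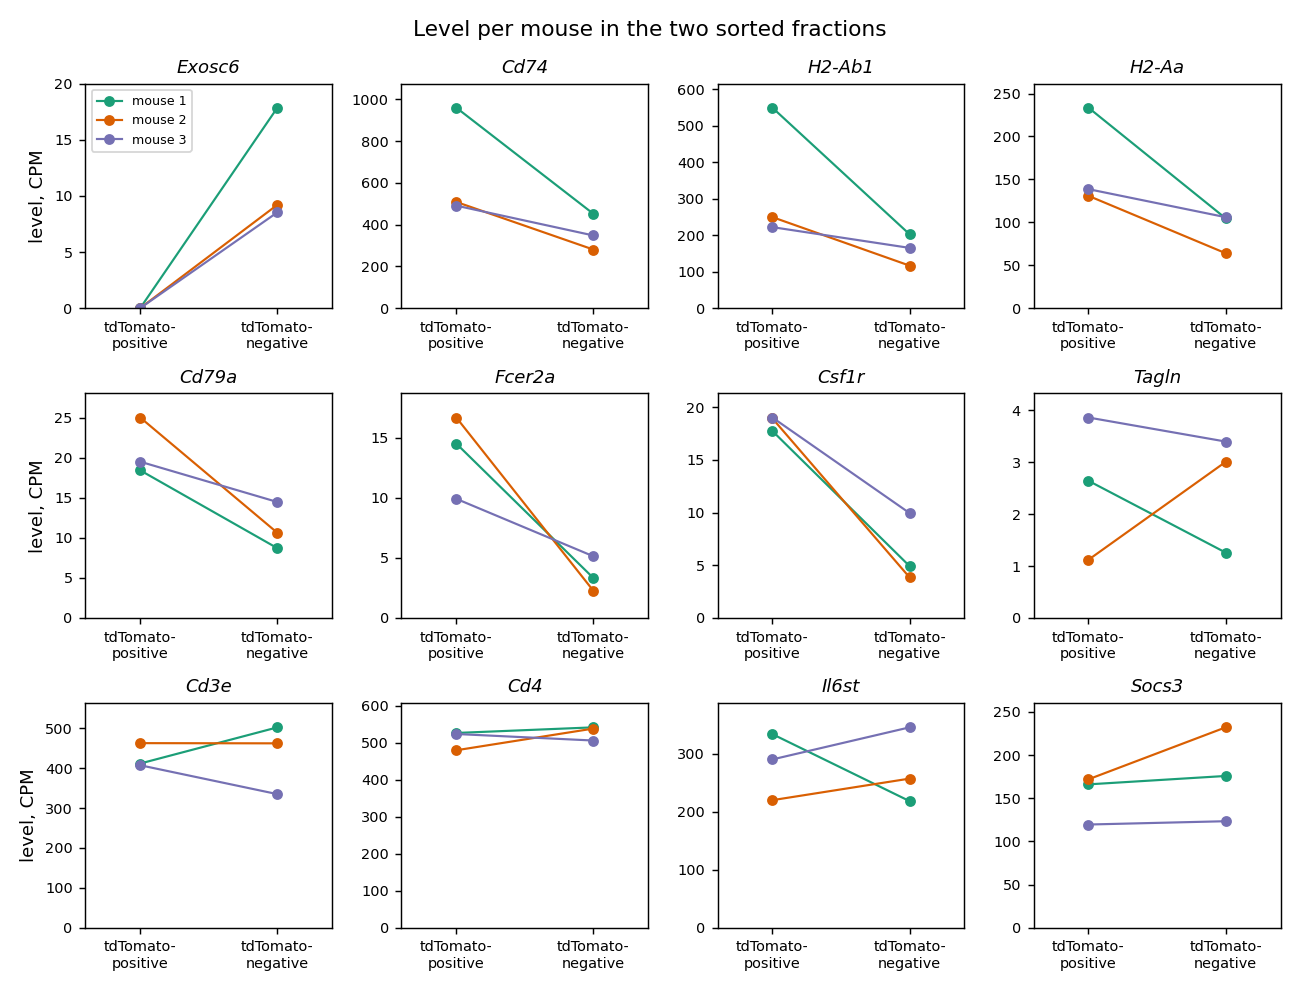
Level in CPM of 12 genes in the tdTomato-positive (left) and tdTomato-negative (right) library of each mouse, with a line joining the libraries of one mouse. Exosc6 is at 0 in all tdTomato-positive libraries, Cd74, H2-Ab1, H2-Aa, Cd79a, Fcer2a and Csf1r are higher on the left in each mouse, and Tagln, Cd3e, Cd4, Il6st and Socs3 show overlapping fractions.

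Genes of B cells stood beside the class II genes. The list held 18 genes, of which 15 were tested, and the other 3, the immunoglobulin constant genes Ighm, Ighd and Igkc, had 0 counts in all 6 libraries. As with the T cell receptor constant genes described further on, these rows were not read as levels. Cd74, which belongs to both lists, was the one member called. Fcer2a, the low-affinity IgE receptor of B cells, had 176, 149 and 108 counts in tdTomato-positive libraries, against 29, 24 and 65 counts in tdTomato-negative libraries. The fractions did not overlap in CPM, and mouse 3 had the lowest tdTomato-positive and the highest tdTomato-negative value. The log2 fold change of Fcer2a was 1.96 with an SE of 0.41, which missed the threshold (adjusted p = 0.291, edgeR's quasi-likelihood test). Cd79a, a signalling chain of the B cell receptor, and Ebf1, a transcription factor of early B cells, each had a log2 fold change of 0.91 and were not called.

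All 15 B cell genes tested had a log2 fold change above 0, from 0.01 to 1.96, with a median of 0.82, which is the value of Cd74. In all 3 mice the tdTomato-positive library was higher for 10 of them, beside 11.8% of all genes tested, and the fractions did not overlap for 9, beside 4.12%. The summed B cell level was 1099, 656 and 636 CPM in tdTomato-positive libraries, against 513, 357 and 449 CPM in tdTomato-negative libraries, and most of it was Cd74. Per kilobase of exon, the mean level of Cd79a was 14.4 CPM in tdTomato-positive and 7.73 CPM in tdTomato-negative cells. That of the T cell gene Cd3e was 105 CPM in tdTomato-positive and 106 CPM in tdTomato-negative cells. In bulk libraries such as these, more cells of a type and more RNA per cell cannot be told apart. What part B cells or other cells that make class II molecules had in the levels of Cd74 and H2-Ab1 was not tested.

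Macrophage and dendritic cell genes were also measured in both fractions. None was called in edgeR, and 3 of each list were higher at an unadjusted p under 0.05, beside 333 of all 11083 genes tested. In all 3 mice, 9 of 21 macrophage and 5 of 14 dendritic cell genes tested were higher in tdTomato-positive cells, beside 11.8% of all genes. In all 3 mice, 0 macrophage genes and 1 dendritic cell gene were lower, beside 13.6%. The fractions did not overlap, with tdTomato-positive cells higher, for 3 genes of each list, beside 4.12% of all genes. Csf1r, the receptor for macrophage colony-stimulating factor, had 215, 169 and 207 counts in tdTomato-positive libraries, against 43, 41 and 126 counts in tdTomato-negative libraries. These values did not overlap, and the log2 fold change was 1.67 with an SE of 0.33 (adjusted p = 0.186, edgeR's quasi-likelihood test). Flt3, a cytokine receptor needed for dendritic cell development, had a log2 fold change of 1.72 and an adjusted p of 0.570. Slc40a1, the iron exporter of red pulp macrophages, had 349, 218 and 142 counts in tdTomato-positive libraries, against 49, 43 and 257 counts in tdTomato-negative libraries. It was higher in tdTomato-positive cells of mouse 1 and 2 and lower in those of mouse 3. Of 27 macrophage and monocyte genes, 21 were tested, with a median log2 fold change of 0.54, and the 6 left out had too few counts to be tested. The 14 dendritic cell genes had a median of 0.56. Values ran from -0.60 to 1.67 for macrophage and monocyte genes, with 3 genes below 0. For dendritic cell genes they ran from -0.42 to 1.72, with 2 genes below 0. The macrophage and dendritic cell medians within mouse 3, at 0.11 and 0.08, were smaller than those within the other mice. They were 0.52 and 0.84 within mouse 1, and 0.57 and 0.86 within mouse 2.

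The summed level of the macrophage list was 340 to 407 CPM in tdTomato-positive libraries and 287 to 321 CPM in tdTomato-negative libraries, and that of the dendritic cell list was 226 to 283 CPM in tdTomato-positive and 200 to 219 CPM in tdTomato-negative libraries. Cd14 and Fcgr1, defining genes of monocytes and macrophages, were picked with their values in view. Cd14 had at most 13 counts and Fcgr1 at most 1 count in any library. Of the 21 macrophage and monocyte genes tested, 18 had a log2 fold change above 0 and 3 below 0. Cd209a, a lectin of dendritic cells, had 29.1, 17.0 and 16.4 CPM in tdTomato-positive libraries, against 11.7, 9.02 and 15.6 CPM in tdTomato-negative libraries, and Zbtb46, a transcription factor of classical dendritic cells, had a log2 fold change of 0.65. Neither was called, though the fractions did not overlap for either. Cybb, a subunit of the phagocyte oxidase, had a value of 0.51 and did not overlap between fractions either.

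Plasma cell genes were few. Of 11 listed, 5 were tested and none was called, with a median log2 fold change of 0.59, beside -0.01 over all genes tested. Jchain, the joining chain of secreted antibodies, had a log2 fold change of 0.95, and Mzb1, a chaperone of antibody-secreting cells, 1.53. The transcription factors Prdm1, Xbp1 and Irf4, which T cells also express, had values of 0.59, 0.05 and -0.13. Mzb1 had 36, 31 and 47 counts in tdTomato-positive libraries, against 12, 15 and 12 counts in tdTomato-negative libraries. Lists for several other cells overlapped between the fractions in summed level. NK cell genes summed to 74.1 to 91.0 CPM in tdTomato-positive and 65.3 to 79.3 CPM in tdTomato-negative libraries, and neutrophil genes to 12.1 to 15.8 CPM in tdTomato-positive and 8.53 to 16.7 CPM in tdTomato-negative libraries. Genes of pericytes and fibroblasts summed to 1.19 to 2.47 CPM in tdTomato-positive and 0.474 to 2.31 CPM in tdTomato-negative libraries, and none of the 27 had enough counts to be tested. Cd8a, the CD8 alpha chain, had 30, 5 and 38 counts in tdTomato-positive libraries and 3, 10 and 26 counts in tdTomato-negative libraries.

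**Figure D3:**
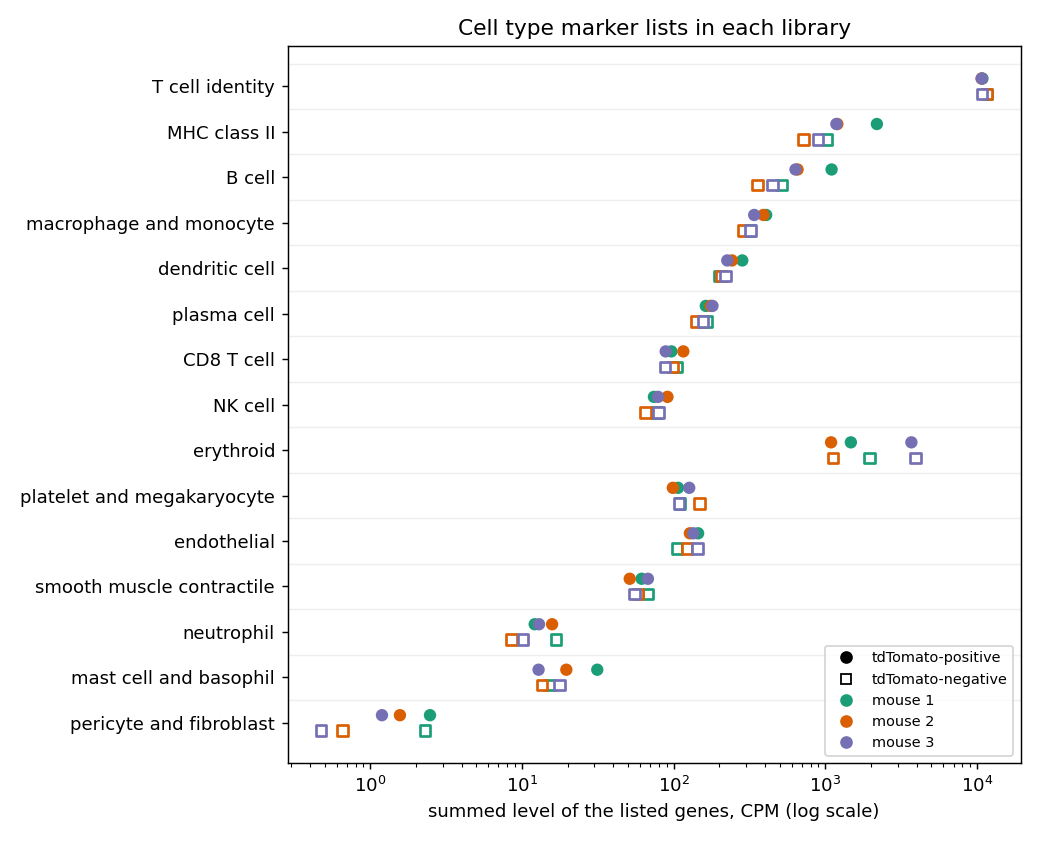
Summed level in CPM, on a log axis, of the genes of each cell type marker list in each library, tdTomato-positive as filled circles above tdTomato-negative as open squares, with a colour per mouse. MHC class II, B cell, macrophage and dendritic cell lists are higher in tdTomato-positive cells of each mouse. T cell identity genes are at 10710 CPM or more in every library, and pericyte and fibroblast genes are at 2.47 CPM or less.

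Exosc6 had the largest difference between fractions, and its counts need a caution. It had 0 counts in each tdTomato-positive library, against 156, 98 and 108 counts in the tdTomato-negative libraries of mouse 1, 2 and 3. With a floor of 3 counts per library, its mean level, 11.9 ± 5.20 CPM in tdTomato-negative cells (SD, n = 3), was at least 41.4-fold lower in tdTomato-positive cells (edgeR's quasi-likelihood test, adjusted p = 0.000284). No other gene had 0 counts in every library of one fraction and at least 10 in every library of the other. In the GENCODE annotation of GRCm38, Exosc6 is a single exon on chromosome 8 at 111056339 to 111057664 on the plus strand. All of its 1326 bases lie within exonic sequence of Aars, the alanyl-tRNA synthetase gene, on the same strand. The counts of Exosc6 are therefore uncertain, since reads there could be assigned to either gene, and the counting rule is not given in the sources used here. Aars itself had 1865, 1469 and 1293 counts in tdTomato-positive libraries and 990, 1561 and 1483 counts in tdTomato-negative libraries, with a log2 fold change of 0.21 (adjusted p = 0.964).

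The RNA exosome is a complex that degrades and trims RNA from its 3′ end, built of a ring of core and cap subunits with associated nucleases. The other subunits were looked at after the values of Exosc6 had been seen. None was called, and their log2 fold changes ran from -0.13 for Exosc3 and Exosc8 to 0.23 for the nuclease Dis3. Exosc10, the nuclear nuclease of the complex, had a value of 0.18.

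Apart from Exosc6, no gene was called lower. Genes of smallest p in that direction, with predicted names left out, are therefore given as not called. Each of those given here had an adjusted p of 0.776 in edgeR's quasi-likelihood test. Jund, an AP-1 transcription factor, had 453, 477 and 349 CPM in tdTomato-positive libraries and 639, 599 and 438 CPM in tdTomato-negative libraries, with a log2 fold change of -0.39. Pdcd1, which encodes the inhibitory receptor PD-1, had 17.6, 25.6 and 16.1 CPM in tdTomato-positive libraries, against 28.9, 40.5 and 24.9 CPM in tdTomato-negative libraries, with a log2 fold change of -0.67. Each was lower in the tdTomato-positive library of all 3 mice, as were 13.6% of all genes tested. The zinc finger gene Zbtb4, the actin-regulating enzyme gene Mical3 and the histone methyltransferase gene Kmt2d had values of -0.65, -1.32 and -0.42. Their fractions did not overlap, which held in this direction for 4.44% of all genes. On the other side, Cyp4f16, a cytochrome P450 gene, had a log2 fold change of 1.03 and an adjusted p of 0.291.

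Tagln, the gene whose promoter gives the Cre line its name, was low in both fractions. It had 32, 10 and 42 counts in tdTomato-positive libraries, against 11, 32 and 43 counts in tdTomato-negative libraries. The order of the fractions differed between mice, and the log2 fold change was -0.03 with a 95% interval of -1.59 to 1.52 (adjusted p = 0.997, edgeR's quasi-likelihood test). Acta2, smooth muscle actin, had 6, 10 and 16 counts in tdTomato-positive and 9, 4 and 16 counts in tdTomato-negative libraries. The 95% interval of Acta2 ran from -1.88 to 2.31, so at this depth even a large difference was not detectable for either gene. Of 19 smooth muscle contractile genes, 5 were tested and none was called. Myh11, the smooth muscle myosin heavy chain, had at most 5 counts in a tdTomato-positive and 9 in a tdTomato-negative library. Of the genes too low to test, Myl9, a regulatory light chain of smooth muscle myosin, had 8, 7 and 1 counts in tdTomato-positive and 0 in each tdTomato-negative library, and Pln, a regulator of the calcium pump, had 2, 1 and 2 counts in tdTomato-positive and 6, 23 and 9 counts in tdTomato-negative libraries. The list summed to 51.3 to 67.7 CPM in tdTomato-positive and 55.2 to 67.9 CPM in tdTomato-negative libraries, most of it from Tpm1, a tropomyosin that many cell types make. The Rosa26 transcript was not analysed here.

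T cell identity genes overlapped between the fractions in summed level, and the sum was lower in the tdTomato-positive library of each mouse. Of the 22 listed, 19 were tested and none was called. At an unadjusted p under 0.05, 3 were lower, beside 211 of all 11083 genes tested. Their log2 fold changes ran from -0.33 for Thy1, the surface antigen CD90, to 0.08 for Themis, a gene of T cell receptor signalling, over the 19. The list's summed level was 10852, 10710 and 10739 CPM in tdTomato-positive libraries, against 11635, 11661 and 10799 CPM in tdTomato-negative libraries. Bcl11b, a transcription factor that maintains the T lineage, had 681, 654 and 719 CPM in tdTomato-positive and 875, 831 and 741 CPM in tdTomato-negative libraries. The fractions of Bcl11b did not overlap, and its log2 fold change of -0.25 was not called (adjusted p = 0.964, edgeR's quasi-likelihood test). Ptprcap, a CD45-associated protein, had a log2 fold change of -0.28. The 3 members left out, the receptor constant genes Trac, Trbc1 and Trbc2, had 0 counts in all 6 libraries, as did every alpha and beta variable segment in the table. Since the CD3 chains were high in the same libraries, these rows were not read as levels.

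No gene of a T helper subset passed the test. Foxp3, which defines regulatory T cells, had 57.1, 58.4 and 39.5 CPM in tdTomato-positive libraries and 46.8, 47.7 and 45.8 CPM in tdTomato-negative libraries, and the 19 regulatory T cell genes tested had a median log2 fold change of -0.01. Klrg1, a receptor of effector cells on the same list, had 12.1, 28.1 and 9.93 CPM in tdTomato-positive libraries, against 6.41, 11.1 and 5.85 CPM in tdTomato-negative libraries. It was higher in the tdTomato-positive library of each mouse, but the fractions overlapped, mouse 2 being high in both, and its adjusted p was 0.776 in edgeR's quasi-likelihood test. All 14 Th1 and cytotoxic genes tested had a log2 fold change above 0, with a median of 0.34. Of them, 4 were higher in all 3 mice, beside 11.8% of all genes tested. Leaving out the tdTomato-positive library of mouse 2, with no replicate block, 7 of 15 were above 0. Tbx21, which encodes the Th1 factor T-bet, had a value of 0.34, and the chemokine gene Ccl5 one of 0.36. Il18rap, a chain of the IL-18 receptor, had 14.5, 84.5 and 14.8 CPM in tdTomato-positive libraries, against 8.70, 27.5 and 12.6 CPM in tdTomato-negative libraries. The medians were 0.35 for 7 Th17 genes, 0.09 for 6 Th2 genes, -0.10 for 12 follicular helper genes, -0.11 for 14 naive and recirculating T cell genes and 0.10 for 20 memory and effector genes. Zeb2, a transcription factor of terminal effector cells on the last list, had 43, 99 and 22 counts in tdTomato-positive libraries, against 13, 55 and 3 counts in tdTomato-negative libraries, and was higher in the tdTomato-positive library of each mouse without being called. Klf2, which keeps naive T cells recirculating, had a value of -0.29, and Tox2, a follicular helper factor, one of -0.67.

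The series concerns IL-6 signalling, in which IL-6 and its receptor chain IL-6Ra engage gp130, encoded by Il6st, and activate JAK kinases and STAT3, while SOCS3 inhibits the pathway. Il6 itself had 0 counts in all 6 libraries. Il6st had 334, 220 and 290 CPM in tdTomato-positive libraries, against 218, 257 and 346 CPM in tdTomato-negative libraries. The order differed between mice, and the log2 fold change was 0.04 (95% interval -0.26 to 0.35, adjusted p = 0.983, edgeR's quasi-likelihood test). Il6ra had 284, 236 and 242 CPM in tdTomato-positive and 284, 266 and 273 CPM in tdTomato-negative libraries, lower in tdTomato-positive cells of each mouse, if barely so in mouse 1, with a log2 fold change of -0.12 (95% interval -0.34 to 0.11). Both receptor chains were thus well above the floor of 3 counts in each fraction, and neither passed the test.

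Stat3 had 476, 398 and 349 CPM in tdTomato-positive libraries and 311, 363 and 410 CPM in tdTomato-negative libraries. Socs3, a STAT3 target and feedback inhibitor, had 166, 172 and 120 CPM in tdTomato-positive libraries, against 176, 232 and 123 CPM in tdTomato-negative libraries. The fractions overlapped for both. The log2 fold change was 0.17 for Stat3, whose order differed between mice, and -0.19 for Socs3, which was lower in tdTomato-positive cells of all 3 mice. Jak2, one of the kinases bound to gp130, had a value of 0.35 and was higher in tdTomato-positive cells of all 3 mice, and Socs1 and Bcl3 had values of -0.32 and -0.26 and were lower in all 3. Of 29 genes on the list, 27 were tested and none was called in either direction in edgeR. At an unadjusted p under 0.05, 1 was higher, beside 333 of all 11083 genes tested. The list's median was -0.03, with 5 genes higher and 7 lower in all 3 mice, beside 11.8% and 13.6% of all genes tested.

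Genes for cytosolic ribosomal proteins had log2 fold changes below 0 throughout, from -0.43 to -0.08 over all 79, with a median of -0.23. None was called, and 22 were lower at an unadjusted p under 0.05, beside 211 of all 11083 genes tested. Rplp1, a protein of the ribosomal stalk, had 408, 494 and 471 CPM in tdTomato-positive libraries, against 707, 671 and 484 CPM in tdTomato-negative libraries, and its log2 fold change was -0.43 (adjusted p = 0.776, edgeR's quasi-likelihood test). The mice differed in sign: the list's median was -0.62 within mouse 1, -0.21 within mouse 2 and 0.11 within mouse 3. Its summed level was 48514, 55420 and 54900 CPM in tdTomato-positive libraries, against 72152, 64117 and 51189 CPM in tdTomato-negative libraries. Mitochondrially encoded genes had the same order of medians within mice, at -0.38, -0.31 and 0.28. Without mouse 1, 22 of the 79 ribosomal protein genes had a value above 0.

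**Figure D4:**
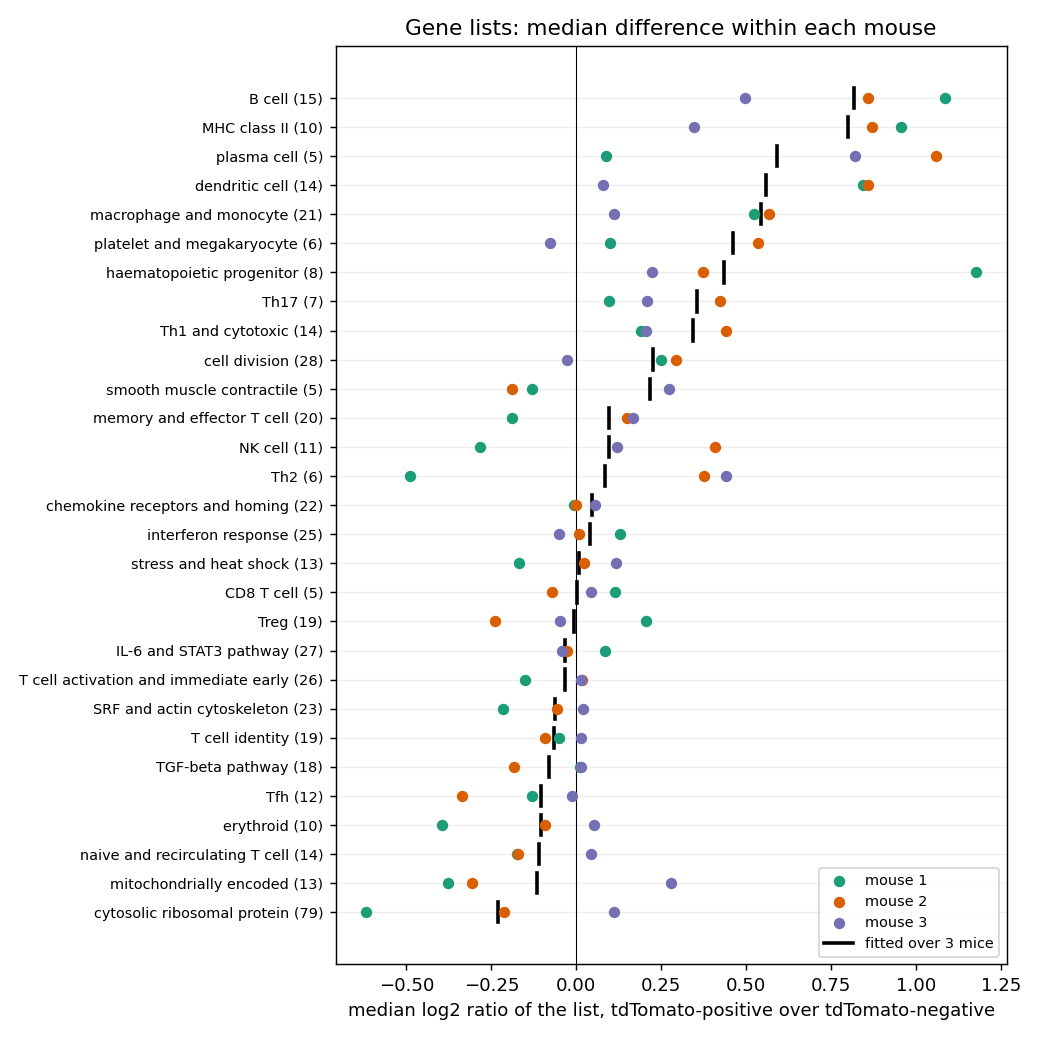
Median log2 ratio, tdTomato-positive over tdTomato-negative, of each gene list with at least 5 genes tested (number in brackets), within each mouse (points) and in the fit over 3 mice (bars). B cell and MHC class II lists, which share Cd74, have the highest medians, at 0.82 and 0.80. Ribosomal protein genes have the lowest, at -0.23, with mouse 3 on the other side of 0.

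The number of calls rested on the test and on which mice were in the fit. Of 30 gene lists, DESeq2 or limma-voom called members in 3. Of all 11083 genes tested, DESeq2 called 8 and limma-voom 5. Both tools called 4 of the MHC class II genes, adding H2-Aa and H2-Eb1 to Cd74 and H2-Ab1, and DESeq2 also called Fcer2a and Csf1r. Without mouse 3, edgeR's quasi-likelihood test called 154 of 11086 genes tested. Of these, 94 were higher in tdTomato-positive cells, or 0.848% of the genes tested, and 60 were lower, or 0.541%. These included 5 of 10 MHC class II genes, 4 of 15 B cell genes, 2 of 21 macrophage genes, 2 of 13 dendritic cell genes and 39 of 79 ribosomal protein genes. The called MHC class II and B cell genes were all higher in tdTomato-positive cells, and the 39 ribosomal protein genes were lower. Without mouse 1, edgeR called 3 genes, and without mouse 2, 1 gene. Fits on 2 mice estimate the spread from few residual degrees of freedom. What sets mouse 3 apart was not tested.

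Genes of dividing cells showed no called difference. The 28 genes of the list had a median log2 fold change of 0.23. Mki67, a marker of cycling cells, had 8.75, 5.38 and 12.1 CPM in tdTomato-positive and 3.21, 6.01 and 5.37 CPM in tdTomato-negative libraries. Top2a, the DNA topoisomerase of dividing cells, had a value of 0.58. None was called among 25 interferon response, 18 TGF-beta pathway, 23 SRF and actin cytoskeleton, 22 chemokine receptor and homing, 26 activation and immediate early or 13 stress genes tested, and their medians lay between -0.08 and 0.05.

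Differences between the mice were tested beside those between the fractions. In the same model, 42 genes differed among the 3 mice at an adjusted p under 0.05, which is 0.379% of the genes tested. They included 5 of 10 erythroid, 3 of 25 interferon response and 5 of 26 T cell activation and immediate early genes tested. Also among them were 3 of 14 Th1 and cytotoxic genes, Il18rap being 1 of these, and 2 of 10 MHC class II genes. The Y-linked genes given above had counts in mouse 1 alone and did not pass the filter on low counts. These genes were not tested, so the 42 leave out such differences. The haemoglobin genes Hba-a1, Hba-a2, Hbb-bs and Hbb-bt had the smallest adjusted p, 6.12e-06 each in edgeR's quasi-likelihood test. Hba-a2 had 673, 515 and 1675 CPM in tdTomato-positive libraries of mouse 1, 2 and 3, and 878, 530 and 1901 CPM in tdTomato-negative libraries. Both libraries of mouse 3 were thus highest, and the erythroid list as a whole summed to 3691 CPM in tdTomato-positive and 3934 CPM in tdTomato-negative cells of that mouse, against at most 1950 CPM in any library of the others. Alas2, the enzyme that starts haem synthesis in red cells, followed the same order.

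Mouse 2 stood out in other genes. Tnfaip3, which encodes the NF-kappaB inhibitor A20, was low there, at 731, 302 and 728 CPM in tdTomato-positive libraries of mouse 1, 2 and 3 and 697, 232 and 662 CPM in tdTomato-negative libraries. Ccl5 was high there, at 94.9, 280 and 86.4 CPM in tdTomato-positive and 89.0, 162 and 75.8 CPM in tdTomato-negative libraries. Nkg7, a granule protein gene of cytotoxic cells, and the interferon-induced genes Irf7 and Ifit3 were likewise highest in both libraries of mouse 2. Slc15a2, a peptide transporter gene, had 122, 112 and 0 counts in tdTomato-positive libraries and 64, 36 and 0 counts in tdTomato-negative libraries of mouse 1, 2 and 3. Of the 3 genes called between the fractions, Cd74 and H2-Ab1 were also among the 42 and Exosc6 was not. The Y-linked genes given above had counts in mouse 1 alone, so they do not separate mouse 2 from mouse 3. The labels do not give sort or library dates, so the source of the differences between mice cannot be told apart and was not tested.

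**Figure D5:**
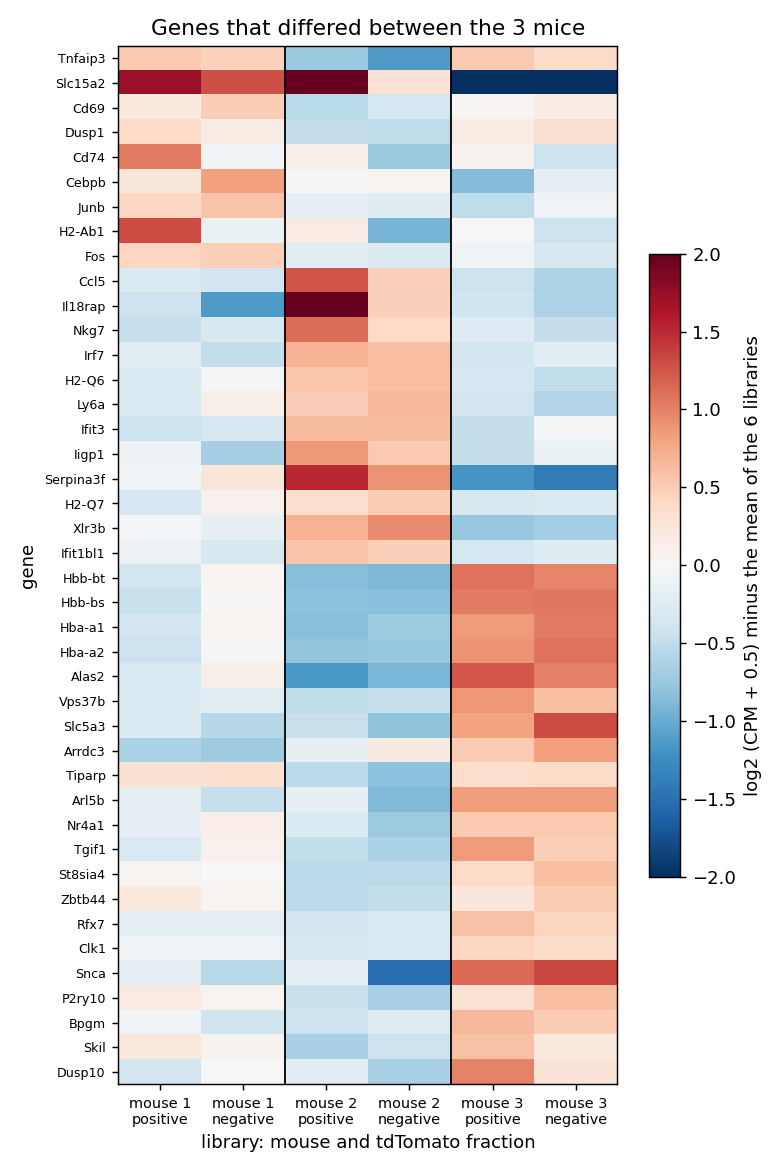
Level of the 42 genes that differed between mice, as log2 (CPM + 0.5) minus the mean of the 6 libraries, with the tdTomato-positive library left of the tdTomato-negative library of each mouse. The haemoglobin genes are highest in both libraries of mouse 3, Ccl5, Nkg7, Irf7 and Ifit3 in both of mouse 2, and Cd74 and H2-Ab1 in the tdTomato-positive library of mouse 1.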

How the data were processed

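The deposited mouse table gives raw counts, 1 column per library, named as total counts per the file headers. Per the submitters' processing notes the build was GRCm38. Which aligner, counter and annotation were used is not given in the sources used here. Columns were matched to samples by name, with 0 unmatched. Totals per library set the floor of 3 counts at 0.237 to 0.343 CPM, which covers counting error only.

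Genes were filtered with filterByExpr, TMM-scaled and fitted in R 4.3.3 by edgeR 4.0.16 (glmQLFit and glmQLFTest, robust), with mouse number and fraction in the model, tested on simulated data. Adjusted p are Benjamini-Hochberg over the 11083 genes tested, and a call is an adjusted p under 0.05. CPM are TMM-scaled. The labels assign both fractions of a number to the same mouse, so the mouse was the block. Deviations from the fraction means correlated by 0.03, 0.12 and 0.12 within mouse 1, 2 and 3. Replicate libraries of a fraction differed by more than sampling noise. Gene positions are from GENCODE M21 on GRCm38.

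The comparison, its members and the gene lists were chosen with earlier results of these data known. Genes named were a fixed set (Tagln, Acta2, Cd3e, Cd4, Cd8a, Il6st, Il6ra, Il6, Stat3, Socs3), the called genes, up to 8 genes of smallest p per direction where fewer than 5 were called, averaging 1 CPM or more and without predicted names, and in each list the 3 members of smallest p. Any other gene was picked with its values in view. Alternatives were no replicate block, DESeq2 1.42.0, limma-voom (limma 3.58.1), RLE or library total scaling, other filters and thresholds, and leaving out each mouse or library. The rat tables were not used. Results for 1 further gene are not reported here.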

Additional observations from a re-analysis of the deposited data

How the results depend on the processing

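Against 3 genes called in the model as reported (2 higher, 1 lower in tdTomato-positive cells), the fit with no replicate block called 1 (0 higher), DESeq2 8 (6 higher, 2 lower), limma-voom 5 (4 higher) and the fit scaled to the library total 2 (1 higher). With no filter on low counts 20 were called (17 higher, 3 lower), with a mean of at least 5 CPM 5 (4 higher), at an adjusted p under 0.1 5 (4 higher), and with a log2 fold change of at least 1 in size 1 (0 higher). RLE scaling called the same 3 genes. Exosc6 was called in 15 of 16 refits, Cd74 in 8 and H2-Ab1 in 6. Leaving out 1 mouse, or 1 library with no block, gave 0 to 154 calls (0 to 94 higher, 0 to 60 lower). The 0 was without the tdTomato-negative library of mouse 1, where the adjusted p of Exosc6 was 0.0768. Without the block, 0 genes were called higher, and Exosc6 was the 1 gene lower. Genes called between mice numbered 99 by DESeq2, 25 scaled to the library total and 219 with no filter, against 42. Scaled to the library total, Cd74 and H2-Ab1 no longer differed between mice at the threshold (adjusted p = 0.0663 and 0.0842). No called gene changed sign. Uncalled genes near 0 did: Tagln was 0.023 by limma-voom, and Cd3e was 0.0076 by DESeq2 and by RLE scaling, 0.028 scaled to the library total, 0.0060 with no filter and 0.0032 at 5 CPM. Over the leave-out fits, log2 fold changes ran from -0.56 to 0.59 for Tagln, -0.36 to 0.81 for Acta2, -0.16 to 0.14 for Cd3e, -0.086 to 0.0051 for Cd4, -0.24 to 0.26 for Il6st, -0.049 to 0.39 for Stat3, -0.41 to 0.030 for Socs3, -0.15 to 1.81 for Il18rap, -0.13 to 0.24 for H2-Oa, -0.079 to 0.31 for H2-Ob, -0.017 to 0.40 for Exosc10, -0.066 to 0.29 for Themis and -0.26 to 0.90 for Ccl5. With 3 mice, a typical gene had to differ by more than about 0.38 on the log2 scale for its own interval to exclude 0.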
